A study of Rattus norvegicus with 8 samples.

Results

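Lipoprotein lipase (Lpl) and 6 genes that act around it in the uptake and storage of lipid were followed in rat kidney. The 7 symbols, Lpl, Angptl4, Gpihbp1, Cd36, Vldlr, Plin2 and Fabp4, were looked up among array probe sets that carry a single gene symbol, and 6 of the 7 were measured, out of 18166 genes on the array. Cd36, which encodes a fatty acid receptor of the cell surface, had its probe set annotated with a second symbol beside its own. It was left out because a single symbol was required, so no value is given for it. The genes were selected on their log2 values on these 8 arrays, so their spread between arrays is described here and not tested.

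RNA came from homogenised kidneys of 10-week-old male Wistar rats and was hybridised to Affymetrix whole-transcript microarrays. The samples form 2 groups by tissue region, 4 arrays of medulla and 4 of cortex. All 8 carry one treatment label, ethylene glycol given daily together with vitamin D every second day for 1 week, a regimen known to bring about calcium oxalate crystals in the rat kidney. No untreated group and no vehicle group were analysed here. The labels name no individual animals, so the spread between arrays may be biological or technical, and p-values measure that spread only. Replicate numbers only name the arrays, and replicate 4 of medulla is not known to come from the same animal as replicate 4 of cortex.

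Lipoprotein lipase releases fatty acids from the triglycerides of chylomicrons and very low density lipoproteins at the inner surface of capillaries. GPIHBP1 on endothelial cells carries the enzyme to that surface and holds it there, and angiopoietin-like 4 inactivates it. The fatty acids then enter cells, where they are bound by fatty acid binding proteins, burned in mitochondria or stored in lipid droplets coated by perilipins. Kidney tubules draw much of their energy from fatty acids, and lipid droplets are known to appear in tubule cells after injury.

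The arrays of a region stood apart from each other despite their shared label. Cyp24a1, the vitamin D-induced 24-hydroxylase, measured 5.31, 5.69, 10.08 and 9.97 log2 intensity on medulla replicates 1 to 4, against 5.42, 6.21, 10.18 and 10.65 on cortex replicates 1 to 4. Havcr1, which encodes kidney injury molecule 1, measured 4.54, 4.80, 8.95 and 11.32 on the medulla arrays, against 4.59, 5.15, 7.54 and 11.27 on the cortex arrays. Both genes were low on replicates 1 and 2 of each region, and Havcr1 was highest on replicate 4 of each. Whether all 8 arrays had the treatment on their label cannot be told from the values, and the region means and SDs given here pool over these arrays. Array medians ran from 34.1 to 34.7 intensity units (5.09 to 5.12 log2), and values near the lower quartile of 21.8 to 22.3 units are close to the dimmest signals of the array. Segment markers were read beside the region labels and separated the regions only in part. Slc14a2, a urea transporter gene of the inner medulla, averaged 6.70 ± 0.53 log2 intensity in medulla and 5.17 ± 0.49 in cortex (SD, n = 4 each). Of 6 collecting duct and inner medulla markers it alone showed no overlap, against 2.83% of all genes, while 5 averaged higher in medulla and 1 lower. Of 8 proximal tubule markers 7 averaged lower in medulla and 1 higher, with a median of -0.29 log2 over the list, and 0 showed no overlap.

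Angptl4 and Plin2 are the members that stood highest on the same arrays, and the RefSeq promoters of both (build GRCr8, 250 bases before to 50 after the annotated start) are shown for that reason. Of the 6 measured members, 3 had a promoter in the table, Angptl4, Plin2 and Vldlr, with 4 entries in all, of which 2 belong to Plin2. Capitals mark matches, on either strand, to ACGTG, the core that hypoxia-inducible factors bind, and to TATAAA, the TATA box. The direct repeat of AGGTCA with 1 base between its copies, which PPAR and RXR receptors bind, was searched the same way. The Angptl4 promoter (chr7:15258632-15258931, minus strand) and the Plin2 promoter (chr5:106228969-106229268, minus strand) read as follows, 5′ to 3′ along the gene.
Angptl4: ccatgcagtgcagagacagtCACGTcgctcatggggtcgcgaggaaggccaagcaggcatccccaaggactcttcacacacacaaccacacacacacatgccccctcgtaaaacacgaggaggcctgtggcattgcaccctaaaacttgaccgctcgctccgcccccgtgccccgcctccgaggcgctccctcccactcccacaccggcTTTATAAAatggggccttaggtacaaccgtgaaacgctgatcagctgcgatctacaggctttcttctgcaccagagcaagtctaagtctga
Plin2: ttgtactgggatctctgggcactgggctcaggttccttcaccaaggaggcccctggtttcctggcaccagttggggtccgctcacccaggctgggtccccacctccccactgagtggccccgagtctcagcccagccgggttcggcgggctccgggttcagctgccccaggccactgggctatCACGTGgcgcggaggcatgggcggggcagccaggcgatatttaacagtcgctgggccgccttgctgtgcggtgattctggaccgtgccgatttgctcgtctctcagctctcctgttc

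The Angptl4 window held ACGTG once, on the reverse strand at bases -230 to -226 from the start, and 2 overlapping TATAAA matches, at -41 to -36 on the reverse strand and at -39 to -34 on the forward strand. In the Plin2 window ACGTG matched on both strands of one palindrome, at -67 to -63 and -66 to -62. Neither window held the AGGTCA repeat, and the second Plin2 entry (chr5:106228488-106228787) and the Vldlr entry held none of the 3 motifs. Among all 33469 promoters of the table, 19.3% held ACGTG, 14.2% TATAAA and 0.0538% the AGGTCA repeat. These matches describe letters in the windows and show no binding. The AGGTCA repeat was searched letter for letter, and the absence of so rare a match says little.

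The enzyme itself varied widely within both regions. Lpl (probe set 17711208) measured 8.86, 8.83, 8.10 and 6.95 log2 intensity on medulla replicates 1 to 4, against 9.24, 8.37, 7.19 and 6.62 on cortex replicates 1 to 4. It was lowest on replicate 4 in each region and highest on replicate 1, and the values of the regions overlapped. In each region replicates 3 and 4, where Cyp24a1 was high, both lay below replicates 1 and 2. The range, the highest minus the lowest log2 value of a region, was 1.92 (3.78-fold) between the medulla arrays and 2.63 (6.18-fold) between the cortex arrays. Without medulla replicate 4 the medulla range was 0.77, and without cortex replicate 1 the cortex range was 1.75, so that single arrays carried part of the spread. Without cortex replicate 4 it was 2.05.

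**Figure D1:**
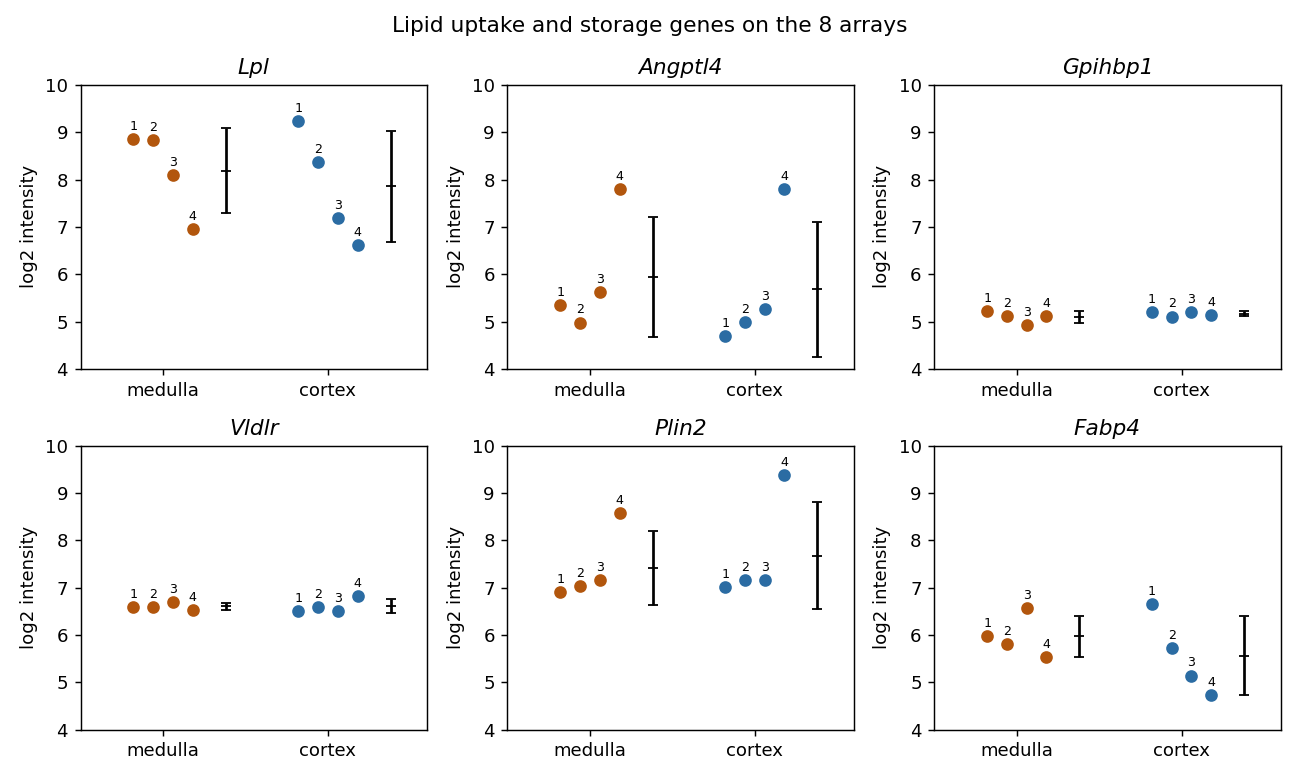
Log2 intensity (vertical axis) of the 6 measured genes on the 4 medulla and 4 cortex arrays, with the replicate number above each point and the mean ± SD of the region as a bar. Lpl is lowest and Angptl4 and Plin2 are highest on replicate 4 of both regions, while Gpihbp1 and Vldlr lie close together.

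The inhibitor gene was highest on the arrays where Lpl was lowest. Angptl4 (probe set 17834433), which encodes angiopoietin-like 4, measured 5.35, 4.98, 5.62 and 7.81 on medulla replicates 1 to 4, against 4.69, 5.00, 5.26 and 7.80 on the cortex replicates. Replicate 4 was the high array in each region, more than 2 log2 units above the next one, and the regions overlapped. The range was 2.83 (7.09-fold) in medulla and 3.11 (8.64-fold) in cortex. Without medulla replicate 4 the medulla range was 0.64, and without cortex replicate 4 the cortex range was 0.57. The lower values lay near the array median, so the ranges may understate the difference.

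The endothelial partner did not share this spread. Gpihbp1 (probe set 17829950) measured 5.23, 5.13, 4.94 and 5.11 on the medulla arrays, against 5.21, 5.11, 5.20 and 5.13 on the cortex arrays. All 8 values lay about the array median of 5.09 to 5.12, and the ranges were 0.30 in medulla, or 0.12 without medulla replicate 3, and 0.10 in cortex. At that signal a difference in a transcript of low abundance may not be visible. Vldlr (probe set 17624770), the receptor that binds very low density lipoprotein, measured 6.59, 6.60, 6.69 and 6.53 on the medulla arrays, against 6.50, 6.60, 6.52 and 6.83 on the cortex arrays. Its range was 0.16 in medulla and 0.33 in cortex, or 0.099 in cortex without cortex replicate 4.

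The lipid droplet gene followed the inhibitor. Plin2 (probe set 17808473), which encodes the droplet coat protein perilipin 2, measured 6.91, 7.03, 7.16 and 8.58 on medulla replicates 1 to 4, against 7.01, 7.16, 7.16 and 9.37 on the cortex replicates. Replicate 4 was high in each region, and the other 6 arrays lay within a narrow band. The range was 1.68 (3.20-fold) in medulla and 2.36 (5.14-fold) in cortex, and without the replicate 4 array of the region it was 0.26 in medulla and 0.15 in cortex.

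Fabp4 followed neither pattern in full. Fabp4 (probe set 17737204), the fatty acid binding protein of adipocytes, macrophages and capillary endothelium, measured 5.98, 5.81, 6.57 and 5.54 on medulla replicates 1 to 4, against 6.65, 5.73, 5.14 and 4.73 on the cortex replicates. It was lowest on replicate 4 in each region, but highest on replicate 3 in medulla and on replicate 1 in cortex. The range was 1.03 in medulla, just above 1 log2 unit, and 1.92 in cortex. It was 0.45 without medulla replicate 3, and 1.00 without cortex replicate 1.

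A range of at least 1 log2 unit, or 2-fold, was reached in both regions by 4 of the 6 members, Lpl, Angptl4, Plin2 and Fabp4. The study's design text also names a 2-fold change, but the labels do not say which arrays it compares. A range is a different measure, at least as large as any difference between arrays of a region. Over all genes 2.21% did so (402 of 18166), with 3.8% in medulla and 3.6% in cortex taken alone. Since the members were chosen with these values known, nothing is read from that count. Without medulla replicate 4 alone the count over all genes was 92, and without cortex replicate 4 alone it was 84. With both of these arrays left out, as was decided once the values were known, 45 genes reached it in both regions. In that setting the range was 0.77 in medulla and 2.05 in cortex for Lpl, 0.75 and 1.51 for Fabp4, and under 1 in both regions for Angptl4 and Plin2.

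**Figure D2:**
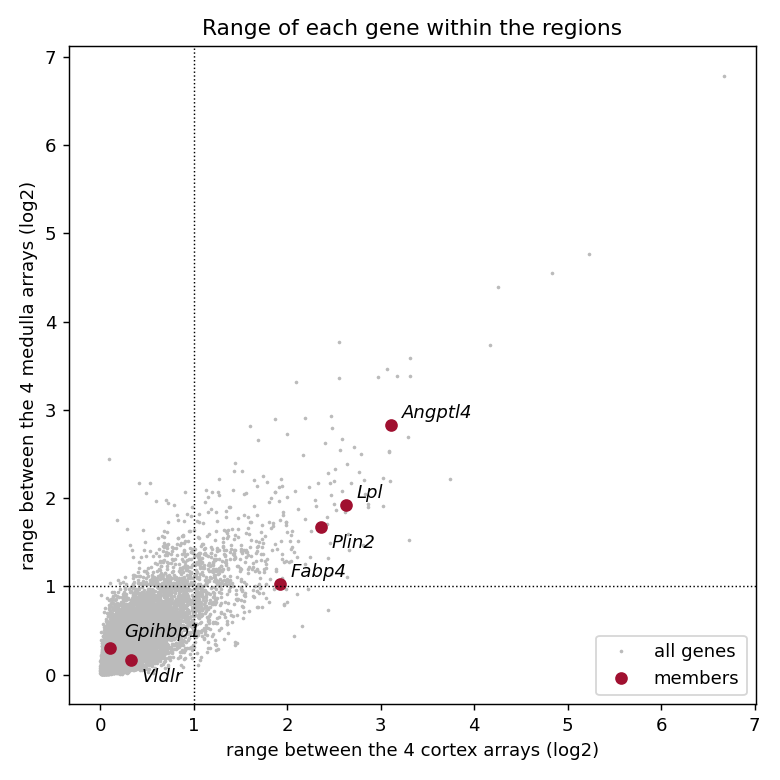
Range between the 4 medulla arrays (vertical axis, log2) against the range between the 4 cortex arrays (horizontal axis, log2) for all 18166 genes in grey and the 6 members in red. Dotted lines mark 1 log2 unit. Lpl, Angptl4, Plin2 and Fabp4 lie above both lines, and Gpihbp1 and Vldlr lie below both.

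The comparison that the labels allow is medulla against cortex, which asks whether the regions differ in these genes. No member was called by limma with Benjamini-Hochberg adjustment over all genes at an adjusted p under 0.05 and a difference of at least 1 log2 unit (0 of 6), as over all genes, where 0% were called. Even Slc14a2, at 1.53 log2 with no overlap, was not called (limma's adjusted p = 0.875). A missing call therefore says little about a member. An unadjusted p under 0.05 was reached by 0 of the 6 members, against 5.35% of all genes. The 4 medulla and 4 cortex values overlapped for all 6 members, while 2.83% of all genes showed no overlap. Lpl averaged 8.19 ± 0.90 in medulla and 7.86 ± 1.18 in cortex (SD, n = 4 each), a difference of 0.33 ± 0.66 (SE), with limma's adjusted p = 0.96 and p = 0.714 by the two-sided exact permutation test, which cannot go below 0.0286 with 4 against 4 arrays. Leaving out single arrays moved this difference between -0.083, without cortex replicate 4, and 0.79, without cortex replicate 1.

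For the other members the difference was likewise within the spread of the arrays. Fabp4 averaged 5.97 ± 0.43 in medulla and 5.56 ± 0.83 in cortex (SD, n = 4 each), a difference of 0.41 ± 0.42 (SE). Angptl4 averaged 5.94 ± 1.27 in medulla and 5.68 ± 1.43 in cortex, a difference of 0.25 ± 0.85. Plin2 averaged 7.42 ± 0.78 in medulla and 7.68 ± 1.13 in cortex, a difference of -0.26 ± 0.61. The differences of Gpihbp1 and Vldlr were small in absolute terms as well, at -0.061 ± 0.065 and -0.0048 ± 0.077. By limma the adjusted p ran from 0.911 to 0.996 over these 5 genes. Fabp4 ran from 0.13 without cortex replicate 4 to 0.77 without cortex replicate 1, and Gpihbp1 from -0.10 without medulla replicate 1 to -0.0055 without medulla replicate 3. The Vldlr difference, near 0, also changed sign with single arrays left out. The sign turned when single arrays were left out for Angptl4, from -0.37 without medulla replicate 4 to 0.96 without cortex replicate 4, and for Plin2, from -0.64 without medulla replicate 4 to 0.31 without cortex replicate 4.

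**Figure D3:**
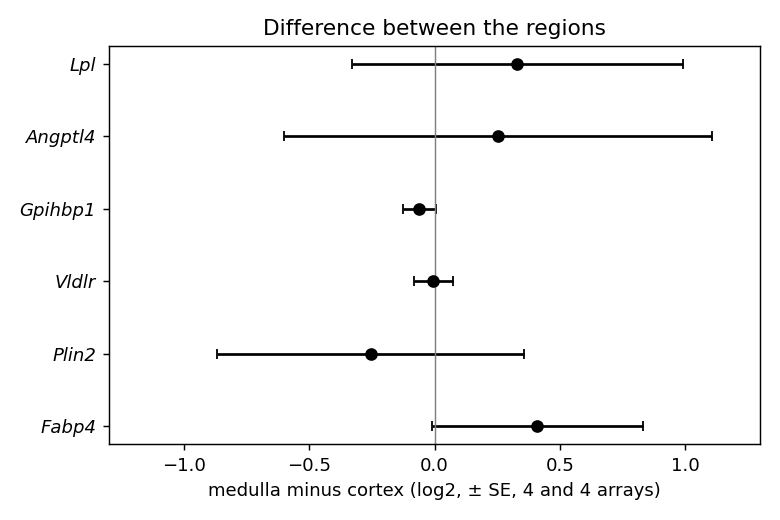
Medulla minus cortex difference (log2, horizontal axis) of each member with its standard error from limma, 4 arrays per region. The bar of every one of the 6 members crosses 0.

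Genes that work with the members were followed in 5 lists. None of their measured genes was called between the regions, with limma's adjusted p between 0.875 and 1. The lists were described by counts and by medians, beside the median difference over all genes of -0.0071.

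Among 8 measured partners of the enzyme and other lipases, 4 averaged higher and 4 lower in medulla, with a median difference of -0.031. Lipg, the endothelial lipase, measured 5.48, 5.66, 5.61 and 4.95 on medulla replicates 1 to 4, against 5.54, 5.65, 6.04 and 5.02 on the cortex replicates. Like Lpl, it was lowest on replicate 4 of each region. Its range of 1.02 in cortex was the only one of the list to reach 1, and none did in medulla. Apoe, the apolipoprotein that directs remnant particles to receptors, had ranges of 0.86 in both regions. Apoc2, the activator of lipoprotein lipase, differed by -0.32 ± 0.17 (SE) between the regions, and Lipa, the lysosomal lipase, by -0.076 ± 0.099.

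Of 6 measured lipoprotein receptor genes, 5 averaged higher in medulla and 1 lower, with a median of 0.03. Sort1, which encodes the sorting receptor sortilin, measured 9.21, 8.67, 8.74 and 8.24 on the medulla arrays, against 8.96, 8.33, 8.10 and 7.32 on the cortex arrays, and was lowest on replicate 4 of each region. Scarb1, Lsr and Lrp8, which encode the high density lipoprotein receptor SR-BI, the lipolysis-stimulated receptor and the apolipoprotein E receptor 2, were instead highest on replicate 4. Scarb1 measured 6.53 on medulla replicate 4 and 6.55 on cortex replicate 4, with the other arrays between 5.58 and 6.01. Lsr measured 8.02 and 8.22 on those arrays and Lrp8 5.76 and 5.75, so receptor genes lay on both sides. Of the list, 0 genes reached a range of 1 in medulla and 1 in cortex, Sort1 at 1.63.

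The list of fatty acid uptake, binding and activation had 8 of 13 measured genes higher in medulla and 5 lower, with a median of 0.021. In it 3 genes reached a range of 1 in both regions. Fabp3, the heart-type fatty acid binding protein, measured 9.22, 9.38, 8.57 and 8.11 on the medulla arrays, against 9.34, 8.91, 8.55 and 8.00 on the cortex arrays. Like Lpl, it was lower on replicates 3 and 4 than on replicates 1 and 2 of each region. Acsl1, which activates long-chain fatty acids, measured 9.15, 9.09, 9.36 and 8.07 on the medulla arrays, against 9.46, 8.87, 8.95 and 8.15 on the cortex arrays. Both were lowest on replicate 4 of each region, as Lpl was. Acsl4, the ligase with a preference for arachidonic acid, was highest there, at 6.94, 6.89, 7.65 and 8.25 on the medulla arrays, against 7.04, 7.01, 7.35 and 8.02 on the cortex arrays. Got2, the mitochondrial aspartate aminotransferase also described as a fatty acid binding protein of the plasma membrane, measured 7.26 on medulla replicate 4 and 7.65 on cortex replicate 4, with the others between 6.69 and 7.00.

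In that list 2 of 13 genes reached an unadjusted p under 0.05, Acsl5 and Cav1, against 5.35% of all genes, and 1 of 13, Cav1, showed no overlap between the regions, against 2.83% of all genes. Both were named after their values were seen. Acsl5, another ligase that activates fatty acids, differed by 0.39 ± 0.16 (SE). Cav1 encodes the caveolin of endothelial caveolae. It averaged 7.16 ± 0.11 in medulla and 6.63 ± 0.27 in cortex (SD, n = 4 each), higher in medulla by 0.53 ± 0.13 (SE), with p = 0.0286 by the exact permutation test, the smallest possible, and limma's adjusted p = 0.875. Neither gene passed the test over all genes.

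Among 21 measured genes of triglyceride storage and the lipid droplet, 16 averaged lower in medulla and 5 higher, with a median of -0.08. None reached a range of 1 in medulla and 1 did in cortex, Cidea at 1.14, so the spread of Plin2 was not shared by the list. An unadjusted p under 0.05 was reached by 4 of the 21, against 5.35% of all genes, all lower in medulla and all named after their values were seen: Plin1 at -0.11 ± 0.038 (SE), Plin5 at -0.23 ± 0.075, Cideb at -0.37 ± 0.15 and G0s2 at -0.28 ± 0.11. They encode perilipins 1 and 5, a droplet protein of the CIDE family and an inhibitor of the triglyceride lipase Pnpla2. limma's adjusted p was 0.875 for each. Plin1 alone of the 21 did not overlap between the regions, against 2.83% of all genes. All its values lay between 5.01 and 5.24, near the array median. Cidec, another CIDE protein, had ranges of 0.73 in medulla and 0.89 in cortex, Dgat2, which makes triglyceride, 0.63 and 0.49, and Pnpla3, a lipase-like droplet protein, 0.54 and 0.62.

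Of 10 measured PPAR receptors, coactivator and target genes, 5 averaged higher and 5 lower in medulla, with a median of -0.024. PPAR receptors are fatty acid-activated transcription factors, and Angptl4, Plin2, Fabp4 and Lpl are among their known targets. Cyp4a1, a fatty acid omega-hydroxylase induced by PPAR alpha in rat liver, measured 7.49, 7.61, 8.03 and 8.41 on the medulla arrays, against 7.33, 7.83, 8.55 and 9.08 on the cortex arrays, and was highest on replicate 4 of each region. Ppara, the receptor gene, had its lowest values there, 5.98 on medulla replicate 4 and 6.24 on cortex replicate 4, with the others between 6.55 and 6.89. Acadm, the medium-chain acyl-CoA dehydrogenase, was lowest there too, at 8.56 and 8.79, with the others between 9.29 and 9.64. Ppargc1a, the coactivator of mitochondrial genes, measured 8.35 and 8.10 there, with the others between 8.75 and 9.10. Genes of this list were therefore found on both sides of the other arrays on replicate 4.

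**Figure D4:**
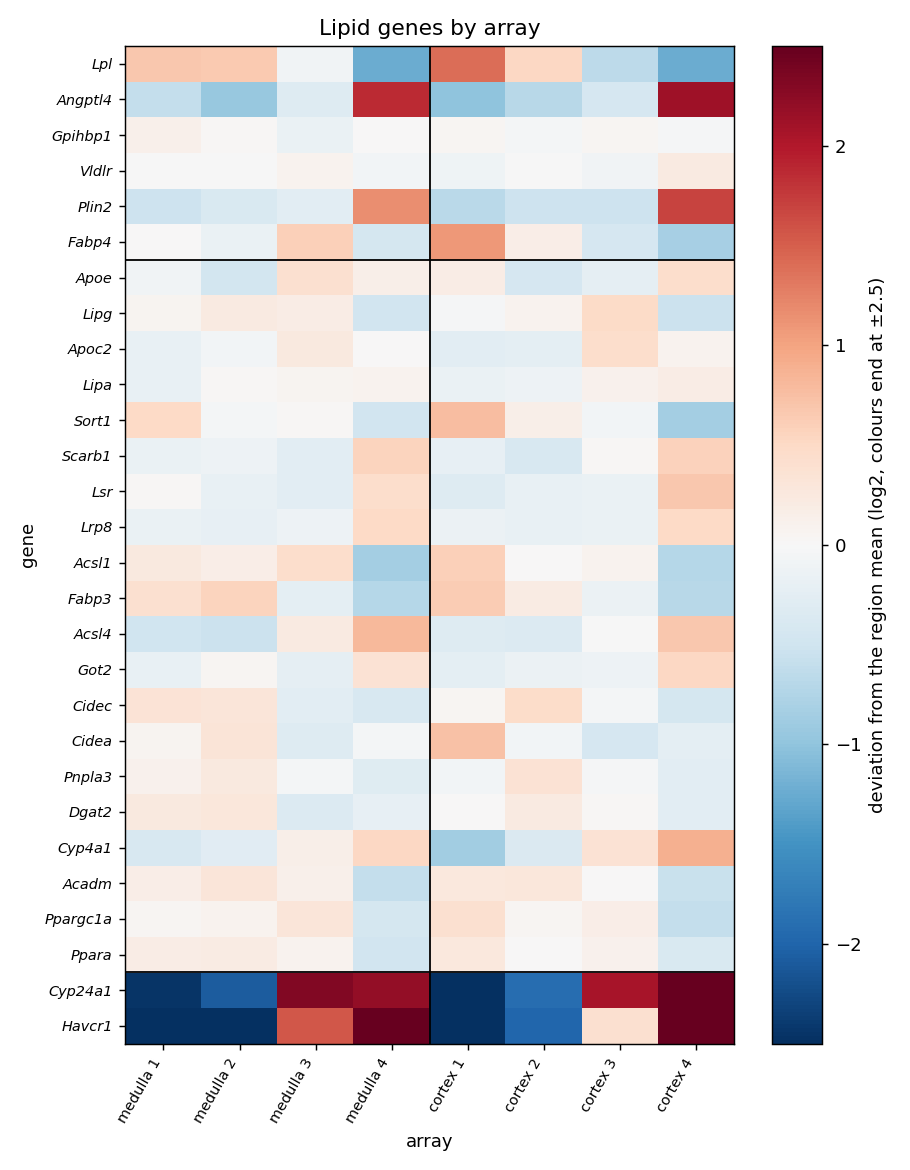
Deviation of each gene from the mean of its region (log2, colour, red above and blue below) on the 4 medulla and 4 cortex arrays, with the members above the upper line, genes of the 5 lists between the lines, and Cyp24a1 and Havcr1 below. On replicate 4 of each region Angptl4, Plin2, Acsl4, Scarb1, Lsr and Lrp8 are red and Lpl, Fabp4, Sort1, Acsl1, Fabp3, Acadm and Ppara are blue.

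The genes most like each widely varying member were taken as those whose deviations from the region mean differed least from it (root mean square over 8 arrays), among the 398 other genes with a range of at least 1 in both regions. For Lpl they were Igf1, the insulin-like growth factor, at 0.19 log2, Lrrc66 at 0.21 and the proprotein convertase gene Pcsk6 at 0.27. Igf1 measured 8.40, 8.39, 7.21 and 6.36 on the medulla arrays, against 8.69, 7.86, 6.16 and 5.86 on the cortex arrays. For Angptl4 they were the glutathione peroxidase gene Gpx2 at 0.13, Mab21l3 at 0.15 and Tnfrsf12a, the receptor for the cytokine TWEAK, at 0.19. For Plin2 they were Steap1 at 0.058, Ddx52 at 0.12 and the poliovirus receptor homologue Pvr at 0.15. For Fabp4 they were Hgf, the hepatocyte growth factor, at 0.17, the matrix protein gene Dpt at 0.20 and the T cell and macrophage coreceptor gene Cd4 at 0.23. Hgf measured 6.81, 6.08, 7.27 and 6.31 on the medulla arrays, against 7.00, 6.12, 5.47 and 5.32 on the cortex arrays, with the high arrays of Fabp4, medulla replicate 3 and cortex replicate 1, at the top.

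Markers of the cells that could carry these transcripts were read beside them, and in whole tissue fewer cells of a type and less RNA per cell cannot be told apart. Of 9 measured endothelial markers, 6 were lowest on medulla replicate 4 and 8 on cortex replicate 4. Their mean deviation was 0.22, 0.057, -0.015 and -0.26 on medulla replicates 1 to 4, against 0.35, 0.14, -0.082 and -0.41 on the cortex replicates, and their summed intensity ran from 1428 to 2120 in medulla and from 1112 to 2011 in cortex. Of the 5 thick ascending limb markers, 4 were lowest on medulla replicate 4 and 5 on cortex replicate 4. Cldn16 hardly varied in medulla, with a range of 0.10. The mean deviation of these markers was -0.61 on medulla replicate 4 and -1.08 on cortex replicate 4, with summed intensities of 3325 to 7045 in medulla and 2504 to 7484 in cortex. Of the 6 collecting duct and inner medulla markers, 5 were lowest on medulla replicate 4 and 6 on cortex replicate 4. Their mean deviation was -0.90 and -0.69 on these arrays, and their summed intensity ran from 745 to 3215 in medulla and from 626 to 1590 in cortex. The 8 proximal tubule markers were not low on both arrays, with mean deviations of -0.068, 0.19, -0.080 and -0.042 on medulla replicates 1 to 4. On cortex replicates 1 to 4 these were -0.40, 0.0043, 0.094 and 0.30. Of the 8, 5 were lowest and 3 highest on medulla replicate 4, against 2 lowest and 3 highest on cortex replicate 4. The part of any of these cell types in the low Lpl values was not tested.

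The 6 tubular injury markers had their highest mean deviation on the arrays where Angptl4 and Plin2 were highest, 1.37 on medulla replicate 4 and 1.38 on cortex replicate 4. Havcr1, described above as highest on these arrays, is one of the 6 and adds nothing separate here. It deviated most, by 3.92 and 4.13, and so carried much of both means. Of the 6 markers, 5 were highest on medulla replicate 4 and 4 on cortex replicate 4. In cortex, Vcam1 was highest on replicate 1 and Sox9 on replicate 3. Sox9 lay below the array median on every array. Their summed intensity ran from 1412 to 11474 in medulla and from 1300 to 9743 in cortex. The 9 macrophage markers had mean deviations of -0.16, -0.30, 0.078 and 0.38 on the medulla arrays, against 0.20, -0.032, -0.30 and 0.13 on the cortex arrays, with summed intensities of 799 to 1531 in medulla and 583 to 1049 in cortex. Of the 6 fibroblast and pericyte markers, 6 were lowest on medulla replicate 2 and 5 on cortex replicate 3. The parts of injured tubules and macrophages in the values of Angptl4, Plin2 and Fabp4 were not tested.

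Adipocyte markers were checked because Lpl, Fabp4 and Plin2 are abundant in fat. Of the 8 markers, 4 lay below the array median on all 8 arrays, namely Retn, Cfd, Lep and Plin4, which encode resistin, adipsin, leptin and perilipin 4. The mean deviation of the list stayed between -0.018 and 0.028 on the medulla arrays and between -0.054 and 0.057 on the cortex arrays, with summed intensities of 364 to 392 in medulla and 388 to 461 in cortex. Adipoq, the adiponectin gene, measured 5.86, 6.12, 6.42 and 6.47 on the medulla arrays, against 6.23, 6.36, 6.47 and 6.55 on the cortex arrays, highest on replicate 4 of each region. Cidec was lowest there, at 7.09, 7.05, 6.49 and 6.35 on the medulla arrays, against 7.09, 7.49, 6.99 and 6.60 on the cortex arrays, so single markers of the list lay on both sides.

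**Figure D5:**
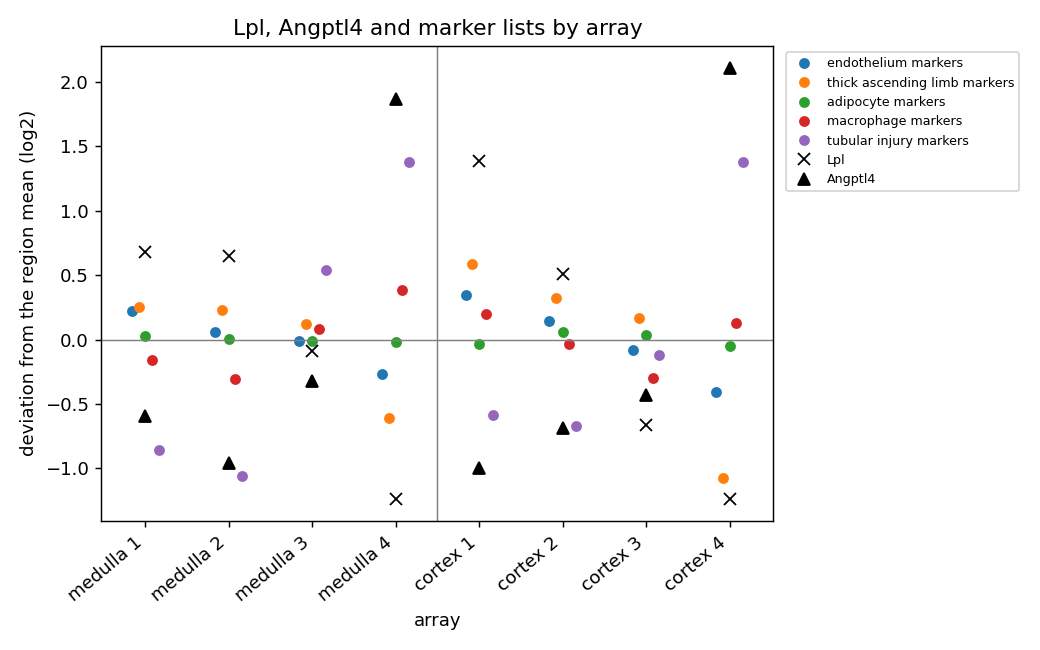
Deviation from the region mean (log2, vertical axis) on the 4 medulla and 4 cortex arrays for Lpl (crosses), Angptl4 (triangles) and the mean of 5 marker lists (coloured points). On replicate 4 of each region Lpl, the endothelial and the thick ascending limb markers lie below 0, Angptl4 and the injury markers above it, and the adipocyte markers stay near it.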

How the data were processed

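The authors deposited 1 table of linear intensity per probe set on 8 arrays, for which the submitters' processing notes name RMA and Affymetrix Expression Console, with no versions stated. Values were logged (log2) with no pseudocount, since none was 0 or below. Of 29870 probe sets, 18511 carried 1 gene symbol in the platform annotation, 575 several and 10784 are unnamed here. By Entrez identifier 18394 matched the rat RefSeq table (GRCr8) and 0 symbols changed. For 291 genes with several probe sets the brightest was kept, which left 18166 genes with no filter. Arrays were numbered within each region in accession order.

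Medulla minus cortex differences came from limma 3.58.1 under R 4.3.3 (eBayes after lmFit, Benjamini-Hochberg over all genes) and, for single genes, the exact permutation test. The fit was tested on simulated data with independent noise for each gene and array. That check does not cover arrays on which many genes move together. Figures used matplotlib 3.10.9. The number of arrays limits precision, and detection calls were not used.

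Named were the members, Cyp24a1 and Havcr1, up to 4 genes per pathway list with the largest smaller-of-both-regions range, and 3 genes most like each widely varying member; others are said to be chosen after their values were seen, or are markers. The members and lists were chosen with earlier results of these data known. Alternatives were quantile normalization, median centring, mean of probe sets, dim genes left out (30th percentile), a trended robust prior, array weights, other thresholds and each array left out.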

Additional observations from a re-analysis of the deposited data

Results flagged for a closer look

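In a group of 4 arrays, a value was singled out where its gap to the nearest other array exceeded Dixon's 95% critical share of the group's range. Of 80 gene and region pairs, 14 met this. Chance gives about 1 in 20 for independent groups, but these genes were partly picked for wide ranges or for likeness to the members and share the same arrays, so the count is no test. All 14 lay on a replicate 4 array, 6 in medulla and 8 in cortex. Among the members only Plin2 did so, at 8.58 on medulla replicate 4, against 6.91 to 7.16 on the other medulla arrays, and at 9.37 on cortex replicate 4, against 7.01 to 7.16. The same held above the other arrays for the receptor genes Lrp8 (5.76 on medulla replicate 4 and 5.75 on cortex replicate 4), Scarb1 (6.53 on medulla replicate 4) and Lsr (8.22 on cortex replicate 4), and for Got2 (7.65 on cortex replicate 4). Ppara lay below the others, at 5.98 on medulla replicate 4.

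The remaining cases are genes picked for their likeness to Plin2 or Angptl4, so they repeat that pattern. Steap1 stood at 6.48 on medulla replicate 4 and 7.10 on cortex replicate 4, Pvr at 7.86 and 8.15 on the same arrays, and Ddx52 at 8.81 and Tnfrsf12a at 8.64 on cortex replicate 4.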

How the results depend on the processing

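No paired analysis was possible because the labels give the arrays of the regions no shared replicate numbers. The count of genes called between the regions was 0 under every alternative with a test, and 16 with a difference of 1 log2 unit and no test. The count with a range of at least 1 log2 in both regions was 402, against 1475 at 1.5-fold and 96 at 3-fold, and 84 to 379 with single arrays left out. With both replicate 4 arrays left out, added after the data were seen, it was 45. In that setting the medulla ranges were 0.77 for Lpl, 0.64 for Angptl4 and 0.26 for Plin2, and the cortex ranges 0.57 for Angptl4, 0.15 for Plin2 and 0.099 for Vldlr.

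Leaving out single arrays gave medulla ranges of 0.77 to 1.92 for Lpl, 0.64 to 2.83 for Angptl4, 0.26 to 1.68 for Plin2, 0.45 to 1.03 for Fabp4, 0.12 to 0.30 for Gpihbp1 and 0.069 to 0.16 for Vldlr. The cortex ranges were 1.75 to 2.63 for Lpl, 0.57 to 3.11 for Angptl4, 0.15 to 2.36 for Plin2, 1.00 to 1.92 for Fabp4, 0.08 to 0.10 for Gpihbp1 and 0.099 to 0.33 for Vldlr. Fewer arrays can only narrow a range. The medulla minus cortex difference ran from -0.083 to 0.79 for Lpl, -0.37 to 0.96 for Angptl4, -0.64 to 0.31 for Plin2, 0.13 to 0.77 for Fabp4, -0.10 to -0.0055 for Gpihbp1 and -0.042 to 0.067 for Vldlr. That of Vldlr, -0.0048 with all arrays, was also 0.0042 with median centring, 0.022 with array weights and 0.092 without both replicate 4 arrays, and the cause was not tested. Of 90 member differences under alternatives 0 passed an adjusted p of 0.05 by limma, and 9 changed sign. Dim signals limit Gpihbp1 and the low end of Angptl4.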
